A study of Arabidopsis thaliana with 9 samples.

Results

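The late-embryogenesis abundant (LEA) and dehydrin proteins of Arabidopsis thaliana were followed in 9 RNA-seq libraries from laser-dissected shoot apical meristems. The set consists of 50 loci, chosen as the locus list of the family, of which 47 had a row among the 23338 loci of the read-count table. AT2G03740, AT2G33690 and AT3G53770 had none, and no value is given for them. The members were split by where each transcript is generally known to accumulate, into 26 seed-type, 12 vegetative stress-type and 12 unclassed members. The family was chosen with a difference of its seed-type members between the time points in view, so every value over time below is a description of the libraries that chose it and carries no support of its own.

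Plants were of the strain Col-0, with no transgene, mutation or chemical treatment named in the labels. All were grown under short days (8 h light, 16 h darkness). The groups LD0, LD1 and LD3 had since been moved for 0, 1 or 3 days to long days (16 h light, 8 h darkness). Each group holds 3 libraries, named A, B and C. By preparation, A and B are of the whole transcriptome shotgun kind and C is of the ready-to-run kind, and all RNA was amplified before sequencing. The labels give neither the number of plants nor whether the libraries came from separate dissections, so any p-value measures the spread between libraries, which may be technical.

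LEA proteins are small, very hydrophilic proteins that are mostly unstructured in water and accumulate when cells lose water. The seed-type members are switched on late in seed maturation by abscisic acid (ABA) and the transcription factors ABI3, ABI5 and their partners, and their transcripts are carried in the dry seed. The vegetative members are induced in leaves and roots by cold, drought or ageing. Dehydrins are the subfamily defined by a lysine-rich repeat. Seed and vegetative tissues use partly different dehydrins, and RAB18 is used in both.

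Depth differed widely between the libraries, from 97153 reads in LD0 B to 11145220 in LD3 C, and libraries of 1 group differed as much as libraries of different groups. Levels are therefore given as CPM, meaning reads per 1000000 of the scaled library size. Transcripts of meristem genes were present in every library, with at least 1 read for 9 to 12 of 12 listed meristem genes. WUS had 0 reads in LD0 A, LD1 A, LD1 C and LD3 A, and CUC1 had 0 in all but LD1 C and LD3 C. CLV3, which encodes the stem-cell signal peptide, had 23 to 2475 reads, and the summed meristem level was 1067 to 1605 CPM at LD0, 1591 to 1988 CPM at LD1 and 1412 to 1615 CPM at LD3. At this depth a transcript with 0 reads could still have been present at 26.9, 28.5 and 1.85 CPM in LD0 A, B and C, at 19.8, 5.03 and 6.68 CPM in LD1, and at 23.4, 2.08 and 0.337 CPM in LD3. These limits allow 3 reads and cover counting error only.

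The seed-type members together took 6.65% of all reads in LD0 A, 1.37% in LD0 B and 7.82% in LD0 C. They took 0.842%, 4.07% and 0.0234% in LD1 A, B and C, and 0.303%, 0.407% and 0.0796% in LD3. Every LD0 library was above every LD3 library, while LD1 overlapped both groups, with LD1 B above LD0 B, LD0 A and LD0 C above every LD1 library, and LD1 C below all other libraries. The mean share was 5.28% ± 3.44 (SD, n = 3) at LD0, 1.65% ± 2.14 at LD1 and 0.263% ± 0.167 at LD3. In bulk tissue, fewer cells carrying a transcript and less of it per cell cannot be told apart.

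On the CPM scale the summed seed-type level was 64858 in LD0 A, 12680 in LD0 B and 105464 in LD0 C. It was 6897, 48595 and 372 in the LD1 libraries, and 2410, 3664 and 997 in those of LD3. The log2 ratio of the group means was −4.69 for LD3 and −1.71 for LD1 relative to LD0, and −2.98 for LD3 relative to LD1. Both long-day groups are set against the same LD0 libraries. Within a replicate letter, LD3 was below LD0 each time, by log2 ratios (A, B, C) of −4.75, −1.79 and −6.72. The step from LD0 to LD1 had no common direction, with −3.23 in A, 1.94 in B and −8.15 in C. In A, LD1 also differed from LD0 and LD3 in how reads were matched and summed, as given in the processing section. The ratio of LD1 to LD0 was −0.70 in libraries A and B alone and −1.08 without LD0 C. Leaving out LD1 B changed it to −4.08 and the ratio of LD3 to LD1 to −0.61.

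The vegetative stress-type members took far fewer reads. Their summed level was 1264, 1947 and 1651 CPM in LD0 A, B and C, 494, 2562 and 265 CPM in LD1, and 312, 742 and 1664 CPM in LD3. LD3 C lay within the LD0 range and LD1 B above it, so neither long-day group was separate from LD0 in these sums. DI21 alone gave 1435 of the 1664 CPM in LD3 C. Without DI21 the log2 ratio of the vegetative sums for LD3 against LD0 was −1.90, and without LD3 C it was −1.61. The group means were 1621 ± 342 CPM at LD0, 1107 ± 1265 CPM at LD1 and 906 ± 691 CPM at LD3 (SD, n = 3). The log2 ratios to LD0 were −0.55 for LD1 and −0.84 for LD3, and LD3 stood at −0.29 relative to LD1. The value for LD1 moved to −2.11 without LD1 B, and that for LD3 against LD1 became 1.26 without LD1 B and 0.17 without LD3 A.

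Reads from seed-type members outnumbered those from vegetative members by 51.3, 6.51 and 63.9 to 1 in LD0 A, B and C. The ratio was 13.96, 18.97 and 1.40 in LD1 A, B and C, and 7.73, 4.94 and 0.599 in LD3. LD3 C was the only library of the 9 with more vegetative than seed-type reads. The unclassed members were a minor share, with 448 to 1416 CPM in the LD0 libraries, 35.6 to 632 CPM in LD1 and 22.3 to 76.9 CPM in LD3.

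**Figure D1:**
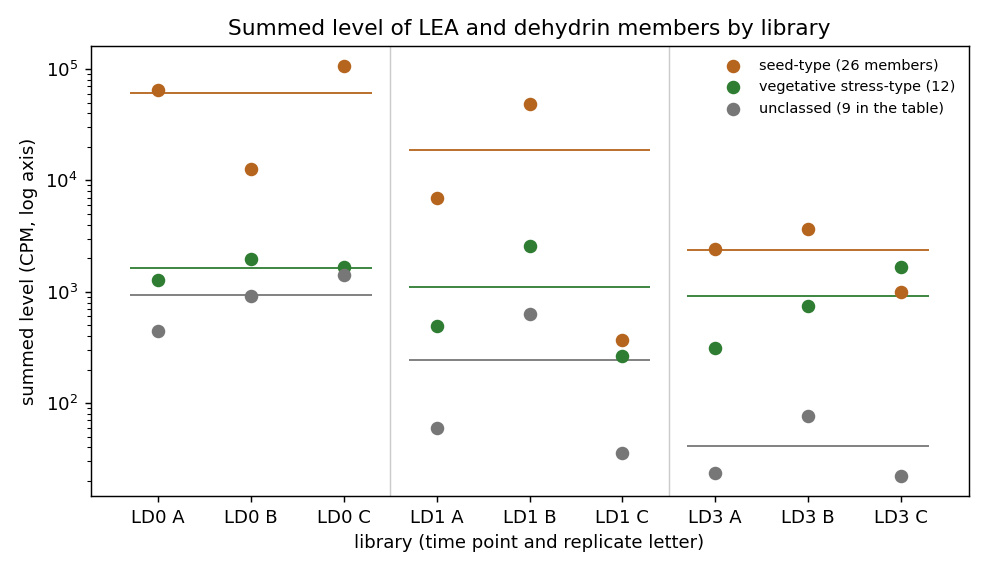
Summed level in CPM (log axis) of the seed-type, vegetative stress-type and unclassed members in each of the 9 libraries, with each point 1 library and each line the mean of a time point. The seed-type points span 12680 to 105464 CPM at LD0, 372 to 48595 CPM at LD1 and 997 to 3664 CPM at LD3, while the vegetative points overlap between the time points. DI21 supplied 86.2% of the vegetative reads in LD3 C.

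EM6 and EM1, the Arabidopsis Em proteins, are a pair of small LEA proteins stored in the dry embryo, and EM6 had the most reads of any member. It had 2075, 279 and 50400 reads in LD0 A, B and C, 138, 2560 and 0 reads in LD1, and 59, 713 and 1193 reads in LD3. These are 18604, 2650 and 31066 CPM at LD0, 909, 4292 and 0 CPM at LD1, and 460, 494 and 134 CPM at LD3. All LD3 libraries lay below all LD0 libraries, and LD1 B lay above LD0 B. The fitted log2 fold change of EM6 was −6.16 ± 1.89 (SE) for LD3 against LD0 and −4.10 ± 1.86 for LD1 against LD0.

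EM1 was the less even of the pair. It had 881, 5 and 24115 reads in LD0 A, B and C, 27, 2587 and 0 reads in LD1, and 0, 238 and 0 reads in LD3. LD0 B, with 47.5 CPM, was below LD1 A, LD1 B and LD3 B, so the groups overlapped. For each EM6 read there were 0.425 EM1 reads in LD0 A and 0.478 in LD0 C, against 0.0179 in LD0 B and 1.01 in LD1 B. The fitted log2 fold change for LD3 against LD0 was −10.28 ± 3.99, a value that depends on the treatment of the libraries at 0 reads and is no bound.

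Among the 10 dehydrins, RAB18 had the most reads. RAB18 is the ABA-responsive dehydrin of seeds and of drought-stressed or ABA-treated plants, and was counted here as seed-type. It had 1357, 430 and 27437 reads in LD0 A, B and C, 603, 15394 and 25 reads in LD1, and 99, 2429 and 992 reads in LD3. The levels were 12166, 4084 and 16912 CPM at LD0, 3972, 25808 and 55.6 CPM at LD1, and 772, 1683 and 112 CPM at LD3. LD1 B held the highest level of any library and LD1 C the lowest, while all LD3 libraries were below all LD0 libraries. The fitted log2 fold change was −4.95 ± 1.66 for LD3 and −1.61 ± 1.75 for LD1 against LD0. The sign of the LD1 value turned without LD0 C (0.37), without LD1 C (0.07) and among libraries A and B alone (0.65). The type given to RAB18 matters for the sums. With RAB18 counted as vegetative, the vegetative log2 ratio for LD3 against LD0 was −2.85 in place of −0.84. The seed-type ratio was then −5.06 in place of −4.69.

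RAB18 and EM6 did not keep a fixed proportion. RAB18 had 0.654, 1.54 and 0.544 reads per EM6 read in LD0 A, B and C. In LD1 the ratio was 4.37 in A and 6.01 in B, with 25 RAB18 reads and no EM6 read in C. In LD3 it was 1.68, 3.41 and 0.832. The LD1 A and B ratios lay above all 3 LD0 ratios, and the LD3 ratios overlapped those of LD0.

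The dehydrin encoded by AT2G21490, whose annotated symbol is LEA, is a seed-expressed relative of RAB18. LEA had 501, 68 and 10618 reads in LD0 A, B and C, 34, 1069 and 68 reads in LD1, and 16, 225 and 629 reads in LD3. Its level was 646 to 6545 CPM at LD0, 151 to 1792 CPM at LD1 and 70.7 to 156 CPM at LD3, so LD3 was separate from LD0 and LD1 was not. The fitted log2 fold change for LD3 against LD0 was −5.24 ± 1.14.

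XERO1 is a further seed dehydrin. It had 256, 54 and 6865 reads in LD0 A, B and C, 27, 249 and 0 reads in LD1, and 9, 97 and 525 reads in LD3. On the CPM scale LD0 spanned 513 to 4232, LD1 spanned 0 to 417 and LD3 spanned 59.0 to 70.2. Both long-day groups were below LD0, and the 3 LD3 libraries lay within a few CPM of 65.5, with an SD of 5.78. The LD3 A value rests on 9 reads, where 3 reads correspond to 23.4 CPM, so this closeness is finer than the depth resolves. The neighbour of XERO1 on the chromosome is LTI30, a low-temperature-induced dehydrin that binds membranes. LTI30 had 56, 3 and 641 reads in LD0 A, B and C, 23, 247 and 0 reads in LD1, and 1, 34 and 0 reads in LD3. Its level of 28.5 to 502 CPM at LD0 stood above the 0 to 23.6 CPM of LD3, while LD1 overlapped LD0.

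The cold and drought dehydrins COR47, ERD10 and ERD14 had few reads in every library, whereas LTI30 reached 502 CPM in LD0 A. COR47, a cold-regulated acidic dehydrin, had 0, 0 and 8 reads in LD0 A, B and C, 0, 16 and 0 reads in LD1, and 0, 6 and 0 reads in LD3. ERD10, its neighbour and an early dehydration-induced dehydrin, had at most 11 reads in any library. ERD14, a relative of both, had 1, 8 and 2 reads in LD0 A, B and C, 2, 12 and 0 reads in LD1, and 1, 15 and 47 reads in LD3. The highest levels of the 3 genes were 26.8 CPM for COR47 in LD1 B, 23.4 CPM for ERD10 in LD3 A and 76.0 CPM for ERD14 in LD0 B. Each of these peaks rests on no more than 16 reads.

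HIRD11, a small histidine-rich dehydrin that binds metal ions, was the steadiest dehydrin. It had 11, 17 and 239 reads in LD0 A, B and C, 19, 61 and 10 reads in LD1, and 20, 153 and 1728 reads in LD3. These are 98.6, 161 and 147 CPM at LD0, 125, 102 and 22.3 CPM at LD1, and 156, 106 and 194 CPM at LD3. The groups overlapped in every pair, and apart from LD1 C all libraries lay between 98.6 and 194 CPM. The fitted log2 fold change was 0.18 ± 0.76 for LD3 and −0.81 ± 0.80 for LD1 against LD0, and the sign of the LD3 value turned with other library scaling (−0.08 with RLE size factors). The unclassed dehydrins AT4G39130 and AT4G38410 had 102 and 1 reads in all, 99 of the former and the only read of the latter in LD0 C.

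The LEA_4 subfamily, whose proteins carry a repeated motif of 11 residues, was the largest with 15 members, 11 of them seed-type. AT3G15670 had the most reads of the subfamily. It had 614, 64 and 11810 reads in LD0 A, B and C, 76, 3826 and 13 reads in LD1, and 39, 650 and 11 reads in LD3. Its level was 608 to 7280 CPM at LD0, 28.9 to 6414 CPM at LD1 and 1.24 to 450 CPM at LD3, so LD3 was separate from LD0 and LD1 B lay within the LD0 range. The summed LEA_4 level was 10872 ± 7792 CPM at LD0, 3517 ± 5110 CPM at LD1 and 561 ± 266 CPM at LD3 (SD, n = 3).

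Other LEA_4 members followed with fewer reads. AT5G44310 had 168, 13 and 4820 reads in LD0 A, B and C, 0, 204 and 0 reads in LD1, and 6, 41 and 20 reads in LD3. AT4G21020 had 88, 44 and 4705 reads in LD0 A, B and C, 5, 303 and 0 reads in LD1, and 4, 76 and 0 reads in LD3. For both genes the 3 LD3 libraries, at no more than 52.7 CPM, lay below the LD0 libraries, at no less than 123 CPM. LEA7 was spread differently, with 200, 63 and 687 reads in LD0 A, B and C, 85, 556 and 0 reads in LD1, and 24, 128 and 0 reads in LD3. Its LD0 A level of 1793 CPM was the highest, and its 3 LD0 and its LD1 A and B libraries lay between 423 and 1793 CPM. LD1 C and LD3 C had no LEA7 read. For LEA7 too the 3 LD3 libraries, at no more than 187 CPM, lay below the LD0 libraries. ECP63 had 34, 2 and 13 reads in LD0 A, B and C, 1, 17 and 0 reads in LD1, and 2, 9 and 876 reads in LD3. Its level was 305, 19.0 and 8.01 CPM at LD0, 0 to 28.5 CPM at LD1 and 15.6, 6.23 and 98.5 CPM at LD3, so LD0 A was the highest library, LD3 C the next, and all groups overlapped. Its fitted log2 fold change for LD3 against LD0 was −0.68 ± 2.50, the smallest change of the 22 tested seed-type members.

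The LEA_1 subfamily holds 3 members, all counted as seed-type, which protect against water deficit during seed maturation and, in the case of LEA4-5, in stressed plants. LEA4-1 had 267, 129 and 7573 reads in LD0 A, B and C, 13, 399 and 0 reads in LD1, and 16, 173 and 8 reads in LD3. LEA4-5 had 114, 57 and 2151 reads in LD0 A, B and C, 4, 176 and 0 reads in LD1, and 10, 81 and 73 reads in LD3. Both genes were lower in every LD1 and every LD3 library than in any LD0 library, at 1225 to 4668 CPM in LD0 against at most 669 CPM for LEA4-1, and at 541 to 1326 CPM against at most 295 CPM for LEA4-5. LEA18 had 166, 9 and 4785 reads in LD0 A, B and C, 5, 155 and 0 reads in LD1, and 2, 48 and 445 reads in LD3. For LEA18 only LD3, at 15.6 to 50.0 CPM, was separate from LD0, because LD0 B held 85.5 CPM and LD1 B 260 CPM.

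M10, a protein known from Arabidopsis seeds, was among the few seed-type members with reads in LD1 C. It had 75, 41 and 5809 reads in LD0 A, B and C, 15, 482 and 54 reads in LD1, and 7, 108 and 2667 reads in LD3. LD3 C, at 300 CPM, was the highest of the LD3 libraries, and all 3 were below the 389 CPM of LD0 B, the lowest LD0 library. The 6 seed maturation proteins (SMP subfamily) fell into 3 that were well represented in LD0 C and 3 near zero. ECP31 and its neighbour AT3G22490 had 1267 and 1342 reads in LD0 C and at most 70 reads in an LD3 library. RAB28 had 16 reads in LD0 A, 385 in LD0 C and none in the other 7 libraries, while AT5G27980, AT5G53260 and AT5G53270 had 19, 14 and 1 reads over all libraries.

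**Figure D2:**
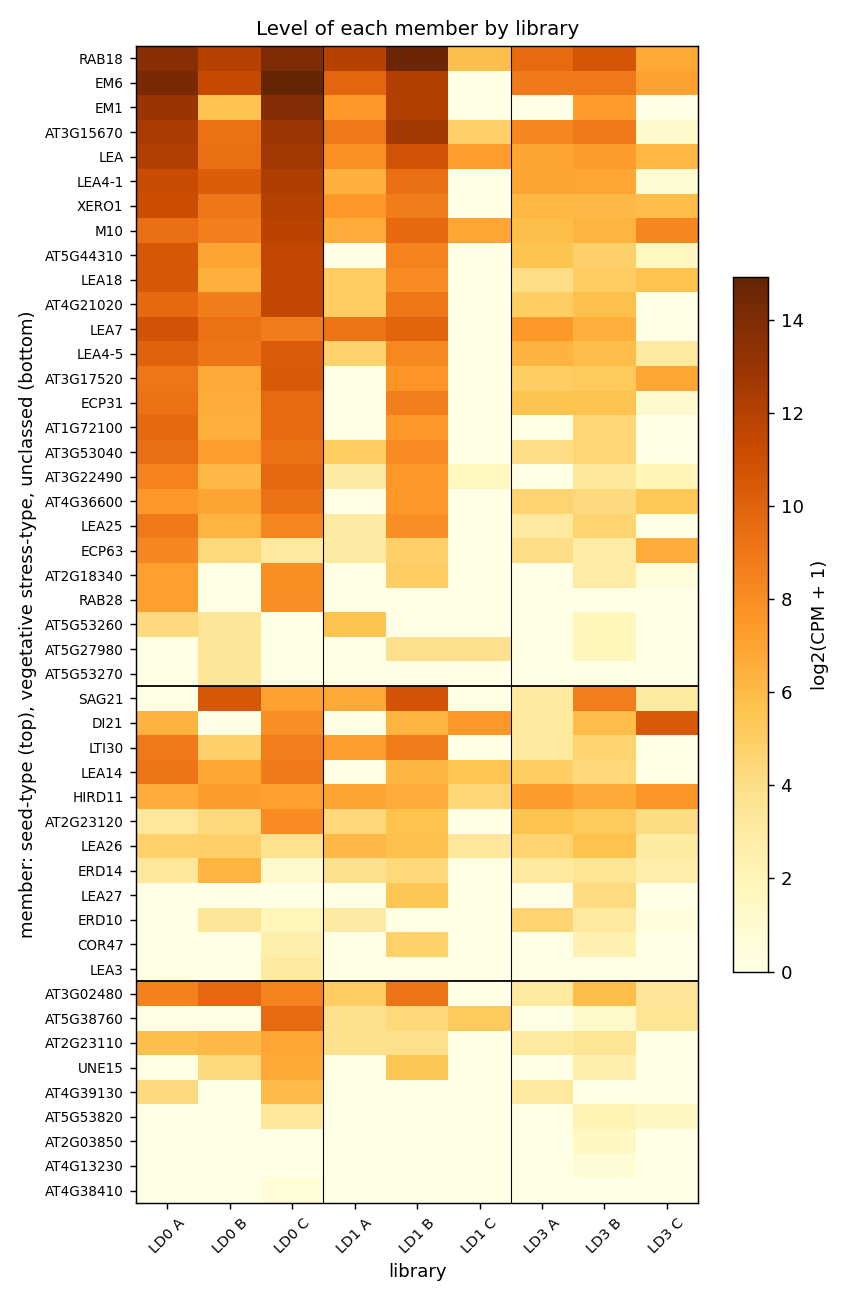
Level of the 47 members with a row in the table, as log2(CPM + 1), in the 9 libraries, ordered within each type by mean level. The seed-type rows are dark in LD0 A, LD0 C and LD1 B and pale in LD1 C, where 6 of 26 had reads, and the vegetative rows show no common order of the time points.

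SAG21, a mitochondrial LEA_3 protein induced by senescence and oxidative stress, had the highest mean level of the vegetative members. It had 0, 159 and 216 reads in LD0 A, B and C, 17, 1017 and 0 reads in LD1, and 1, 590 and 61 reads in LD3. On the CPM scale it stood at 1510 in LD0 B, 1705 in LD1 B and 409 in LD3 B, against at most 133 in the other 6 libraries. In each time point the B library was the highest, and the groups overlapped. SAG21 made up 77.6% of the vegetative reads in LD0 B, 66.6% in LD1 B and 55.1% in LD3 B.

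DI21, a drought-induced member of the same LEA_3 subfamily, was high in a different library. It had 9, 0 and 378 reads in LD0 A, B and C, 0, 45 and 85 reads in LD1, and 1, 84 and 12761 reads in LD3. Its level was 1435 CPM in LD3 C and no more than 233 CPM in any other library. Both read columns of LD3 C held it, with 5957 and 6804 reads, and it supplied 86.2% of the vegetative reads there. The fitted log2 fold change for LD3 against LD0 was 1.05 ± 1.38, and it became −0.23 without LD3 C. Without DI21, the log2 ratio of the vegetative sums for LD3 against LD0 was −1.90.

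The LEA_2 proteins are atypical, folded members of the family. LEA14 had 60, 12 and 738 reads in LD0 A, B and C, 0, 43 and 20 reads in LD1, and 4, 29 and 0 reads in LD3. It was below LD0 in every LD1 and every LD3 library, at 114 to 538 CPM in LD0, 0 to 72.1 CPM in LD1 and 0 to 31.2 CPM in LD3. LEA26 had 3, 3 and 20 reads in LD0 A, B and C, 10, 31 and 4 reads in LD1, and 3, 72 and 62 reads in LD3, and its groups overlapped at 6.97 to 65.9 CPM. LEA27 had no read outside LD1 B, with 26, and LD3 B, with 25.

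The remaining named members were mostly unclassed. AT2G23110 and its neighbour AT2G23120, a vegetative member, encode PvLEA18-type proteins and had their highest levels in LD0 C, with 194 and 420 reads. AT2G23110 was below LD0 in all long-day libraries, at 53.8 to 120 CPM against 0 to 13.4 CPM, whereas AT2G23120 overlapped. AT3G02480 had 42, 88 and 572 reads in LD0 A, B and C, 5, 331 and 0 reads in LD1, and 1, 78 and 90 reads in LD3, with LD3 separate from LD0. AT5G38760 had 0, 0 and 1238 reads in LD0 A, B and C, 2, 12 and 16 reads in LD1, and 0, 2 and 92 reads in LD3. AT5G38760 was thus high in LD0 C alone, and within each time point its C library was the highest. UNE15 had 178 reads in LD0 C, 26 in LD1 B and at most 7 in any other library.

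The make-up of the seed-type reads was compared between libraries as shares, which depend on transcript length as well as on transcript number. EM6 led with 28.7% in LD0 A and 29.5% in LD0 C, and RAB18 led in LD0 B with 32.2%. RAB18 also led in LD1 A, LD1 B, LD3 A and LD3 B, with 57.6%, 53.1%, 32.04% and 45.9%. In LD1 C the dehydrin LEA led with 40.7% of 167 reads, and in LD3 C M10 led with 30.1% of 8870 reads. The rank order of the 26 seed-type members was close among LD0 A, LD0 B, LD0 C, LD1 A, LD1 B, LD3 A and LD3 B, with Spearman correlations across members from 0.646 to 0.975. LD1 C correlated with the other libraries at 0.174 to 0.355 and LD3 C at 0.282 to 0.572. These correlations describe 26 genes in pairs of libraries, in which shallow libraries hold many ties at 0.

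**Figure D3:**
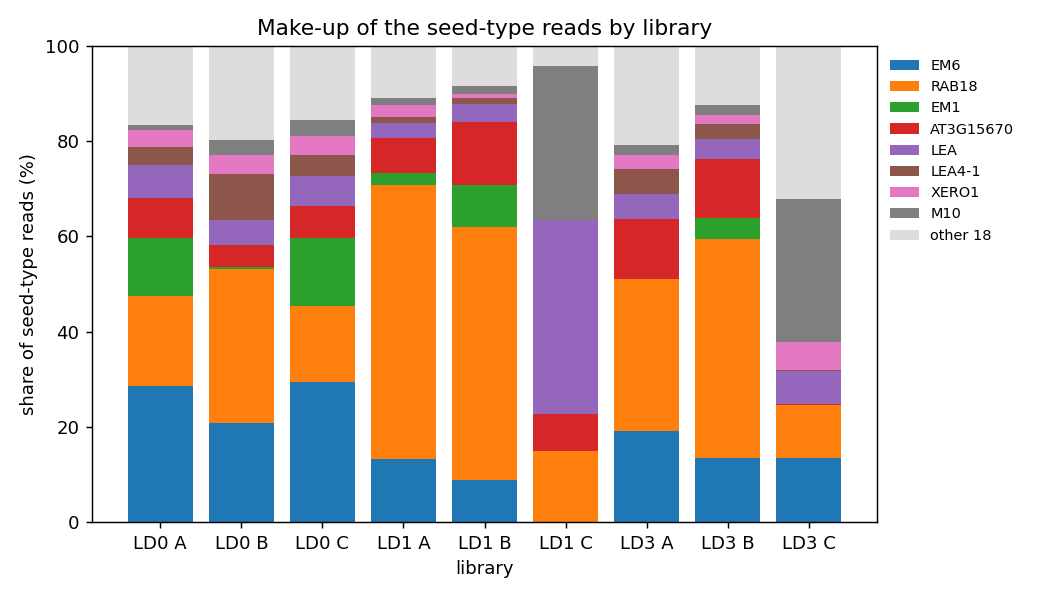
Share of the seed-type reads (%) taken by 8 members and by the other 18 in each library, as stacked bars from 0 to 100%. RAB18 takes 57.6% and 53.1% in LD1 A and LD1 B, LEA takes 40.7% in LD1 C, and M10 takes 30.1% in LD3 C.

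Of the 47 members, 34 passed the filter on low counts and were tested among 9300 genes, namely 22 seed-type, 8 vegetative and 4 unclassed members. The filter keeps a gene that is high in a single group, so the tested members are not all members. At a Benjamini-Hochberg adjusted p under 0.05, edgeR's quasi-likelihood test called 0 of the 34 in LD1 against LD0, in LD3 against LD0 and in LD3 against LD1, where it called 0% of all tested genes. The joint test over the 3 time points called 0 of 34 members and 0.0108% of all genes. The common biological coefficient of variation was 0.898, with 5 residual degrees of freedom. For LD3 against LD0, DESeq2 called 22 members beside 3.31% of the genes it gave an adjusted p and limma-voom called 15 beside 5.46%. For LD1 against LD0, DESeq2 called 1 member, LEA4-1, beside 0.431% of the genes it gave an adjusted p and limma-voom 0 beside 0% of all genes. For LD3 against LD1, DESeq2 called 0 members beside 0.109% of the genes it gave an adjusted p and limma-voom 0 beside 0% of all genes.

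At an unadjusted p under 0.05, edgeR counted 24 of 34 members lower in LD3 than in LD0, where 5.24% of all genes were lower. They were 19 seed-type, 2 vegetative and 3 unclassed members. In LD1 against LD0 it counted 8 members lower beside 3.09% of all genes, and in LD3 against LD1 it counted 5 lower beside 2.51% of all genes. No member was counted higher, where 3.28% (LD1 against LD0), 2.69% (LD3 against LD0) and 1.57% (LD3 against LD1) of all genes were. The joint test counted 20 members beside 5.74% of all genes. As the family was chosen on these contrasts, nothing is read from these counts.

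The median fitted log2 fold change of the 22 seed-type members was −3.75 in LD1 and −6.16 in LD3 relative to LD0, and −2.15 in LD3 relative to LD1. For the 8 vegetative members the medians were −1.25, −0.99 and −0.10, in that order, and for all 9300 genes they were −0.06, 0.09 and 0.08. In LD3 against LD0 the libraries of 22 members did not overlap and lay lower in LD3, 18 of them seed-type, where 5.18% of all genes did so. In LD1 against LD0 this held for XERO1, LEA4-1, LEA4-5, LEA14 and AT2G23110, 5 of 34 members beside 4.44% of all genes. In LD3 against LD1 it held for AT5G38760, 1 of 34 members beside 1.96% of all genes. No member lay higher without overlap, where 4.3%, 7.55% and 7.2% of all genes did so in LD1 against LD0, LD3 against LD0 and LD3 against LD1.

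**Figure D4:**
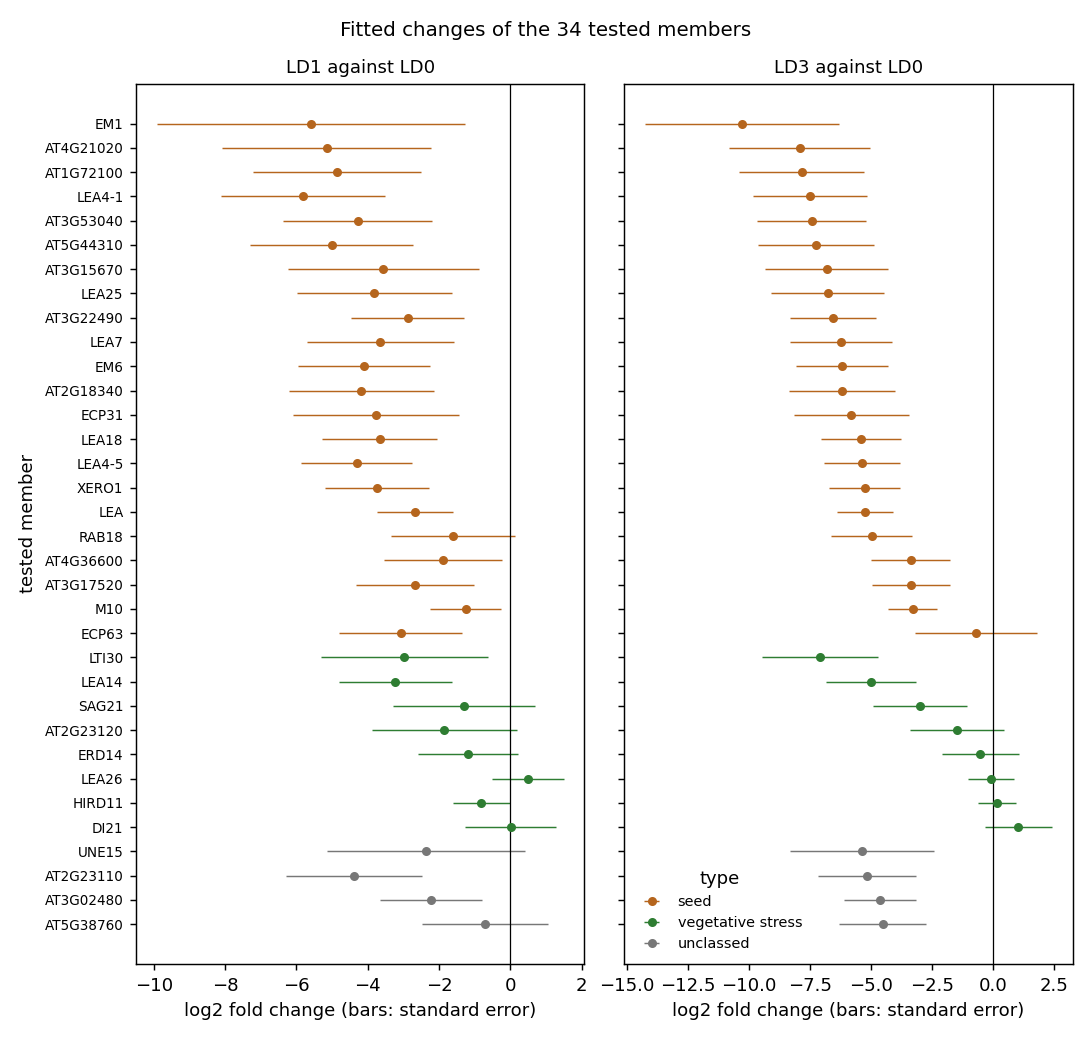
Fitted log2 fold changes of the 34 tested members for LD1 against LD0 (left) and LD3 against LD0 (right), with bars of 1 standard error, coloured by type. All 22 seed-type values lie below 0 in both panels, with medians of −3.75 and −6.16, and the vegetative values scatter around medians of −1.25 and −0.99. Both panels use the same LD0 libraries.

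The authors' deposited tables compare the same time points with edgeR and give an unadjusted p-value for each locus. In the authors' deposited table for LD3 against LD0, 22 of 26 seed-type members were lower at p under 0.05, beside 5.68% of all listed loci, and none was higher, beside 1.83%. EM6 had a log2 fold change of −5.61 (p = 0.00143) in the authors' deposited table, where EM1 had −6.99 (p = 0.00018) and RAB18 had −3.66 (p = 0.0234). Of the 12 vegetative members, LEA14 (−4.57) and LTI30 (−4.78) were lower at p under 0.05 in the authors' deposited table for LD3 against LD0. In the authors' deposited table for LD1 against LD0, 9 of 26 seed-type members were lower at p under 0.05, beside 3.97% of all listed loci. RAB18 had a log2 fold change of −0.18 (p = 0.904) in the authors' deposited table for this comparison. LEA27 had reads in a single LD1 library and none at LD0. At p under 0.05 it was the only member higher in the authors' deposited table for LD1 against LD0, beside 2.81% of all listed loci. For LD3 against LD1 the authors' deposited table listed 24 seed-type members. At p under 0.05 it had 4 of them lower, beside 5.18% of all listed loci, and none higher, beside 3.52%.

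Library preparation was a contrast that had no part in choosing the members. All ready-to-run libraries carry the letter C, so preparation and replicate letter cannot be told apart in these values. Comparing the ready-to-run libraries (C) with the shotgun libraries (A and B) at equal time point, edgeR's quasi-likelihood test called 0 of 34 members, where it called 0.839% of all genes. At an unadjusted p under 0.05 it counted 5 of 34 members, beside 17.9% of all genes, while at the adjusted threshold DESeq2 called 6 members beside 12.2% of all genes and limma-voom 2 beside 16.4%. AT5G38760 was higher in C by a log2 fold change of 4.32 ± 1.33 (adjusted p = 0.122) and DI21 by 3.54 ± 1.14 (adjusted p = 0.133). LEA7 was lower in C by a log2 fold change of −5.40 ± 2.03 (adjusted p = 0.186). Without LD0 C it called 5 of 31 tested members, where it called 1.3% of 8540 genes. The median log2 fold change for preparation was −1.84 over the seed-type members, −1.37 over the vegetative members and 0.05 over all genes.

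Genes for seed storage were high in the same libraries as the seed-type members. The 14 listed storage protein and oleosin genes summed to 11967 to 39663 CPM in LD0, 1543 to 19464 CPM in LD1 and 696 to 2215 CPM in LD3. In LD3 against LD0, 0 of 14 were called by edgeR's quasi-likelihood test, beside 0% of all genes, and the median log2 fold change was −5.49. At an unadjusted p under 0.05 in the same test, 13 of 14 were lower, beside 5.24% of all genes. SESA5, a seed storage albumin, kept 583 reads in LD1 C, where EM6, EM1 and XERO1 had none. The 5 genes most alike the seed-type sum over the 9 libraries, among 9266 tested non-members, were AT2G28490, AT5G45690, SESA4, AT1G16850 and AT3G58450, with Pearson correlations from 0.968 to 0.984, given as a description.

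The seed regulators were detected at low levels, with 7 of 10 listed genes in the table and 3 of them tested. ABI5, the bZIP factor that binds promoters of EM1 and EM6, had 11, 2 and 518 reads in LD0 A, B and C, 5, 125 and 0 reads in LD1, and 2, 28 and 0 reads in LD3. HSFA9, a seed heat-shock factor, had 8, 6 and 271 reads in LD0 A, B and C, 0, 109 and 0 reads in LD1, and 1, 3 and 0 reads in LD3. Both were highest in LD0 C and LD1 B by reads and at 0 in LD1 C and LD3 C. EEL, a bZIP factor that acts with ABI5, had at most 62 reads and ABI3 at most 15, both in LD0 C. Of the other master regulators of embryo development, FUS3 had 2 reads, in LD3 B, and LEC2 had 1 read, in LD0 C. DOG1, a seed dormancy gene, had 22 reads in LD0 C, 4 in LD3 C and none elsewhere. LEC1, ABI4 and BZIP53 had no row in the table used here. The summed regulator level was 85.5 to 548 CPM at LD0, 0 to 399 CPM at LD1 and 1.57 to 46.8 CPM at LD3.

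Pollen genes were also present, and in LD0 A they did not go with the seed-type members. Of 8 listed pollen genes 7 were in the table, and these summed to 26.9, 8140 and 2726 CPM in LD0 A, B and C, 790, 14651 and 154 CPM in LD1, and 85.8, 927 and 136 CPM in LD3. LD0 A, with 64858 CPM of seed-type transcripts, had 3 pollen reads in all, 1 each from AT5G45880, BCP1 and AGP11. The listed genes VGD1, PPME1, AGP6 and SKS13 were at 0 there. LD1 B held the highest pollen sum and the highest RAB18 level. All 7 pollen genes had a fitted log2 fold change below 0 in LD3 against LD0, with a median of −4.71. At an unadjusted p under 0.05, 4 of the 7 were lower, beside 5.24% of all genes, and 0 were called, beside 0% of all genes. The part of seed, embryo or pollen material in the differences between libraries was not tested.

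**Figure D5:**
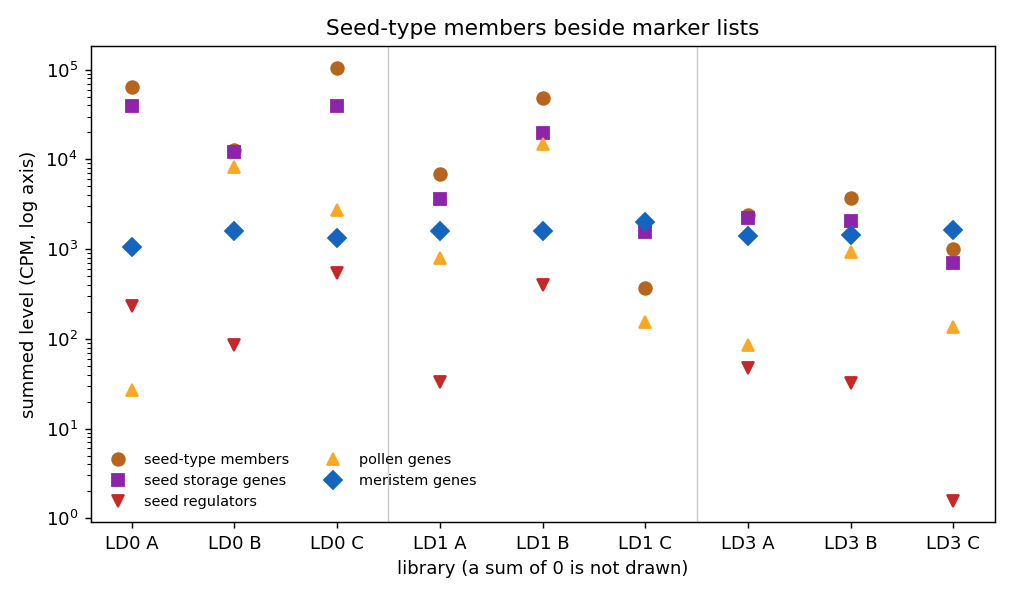
Summed level in CPM (log axis) of the seed-type members and of the listed seed storage, seed regulator, pollen and meristem genes in each library, where a sum of 0 is not drawn. The storage genes span 696 to 39663 CPM, the pollen genes 26.9 to 14651 CPM and the meristem genes 1067 to 1988 CPM.

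The genes of ABA signalling and of the cold and drought response spanned a narrower range than the seed-type members. In both lists every LD3 sum still lay below every LD0 sum. The 24 listed ABA signalling genes summed to 439 to 1282 CPM in LD0, 296 to 1467 CPM in LD1 and 218 to 361 CPM in LD3. Of the 13 tested, 0 were called in LD3 against LD0, beside 0% of all genes, and the median log2 fold change was −0.54. At an unadjusted p under 0.05, 3 were lower in LD3 than in LD0, beside 5.24% of all genes. Of 12 ABA metabolism genes with a row, 3 were tested, with a median log2 fold change of −1.01 in LD3 against LD0. At an unadjusted p under 0.05, 1 of the 3 was lower, beside 5.24% of all genes. The 14 cold and drought genes in the table summed to 520 to 1301 CPM in LD0, 46.7 to 2161 CPM in LD1 and 148 to 289 CPM in LD3. Of the 7 tested, 0 had an unadjusted p under 0.05 in LD3 against LD0, beside 737 of all 9300 genes, and the median was −0.08. RD29A, a standard marker of cold and drought induction, had at most 7 reads in a library. RD26, a drought-induced NAC factor, had 79, 1076 and 69 reads in the B libraries of LD0, LD1 and LD3, and 1 read in the other 6 libraries together. Leaf photosynthesis genes summed to 332 to 1724 CPM in LD0, 490 to 1865 CPM in LD1 and 318 to 913 CPM in LD3. In LD3 against LD0, 0 of 8 leaf genes and 0 of 9 meristem genes had an unadjusted p under 0.05, beside 737 of all 9300 genes.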

How the data were processed

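Laser-dissected shoot apical meristems were sampled at 3 time points with 3 libraries each, with amplified RNA and randomly primed cDNA, per the labels' protocols. The authors deposited raw read counts per locus in 16 columns. Per the file headers, 7 columns come from BLASTN 2.2.21 and 9 from BLASTN 2.2.13. LD0 A and LD3 A are each a single column from 2.2.21, while LD1 A has read 1 and read 2 columns from 2.2.13. The B libraries come from 2.2.13, and the C libraries from 2.2.21 except read 2 of LD3 C. Genome build, strand use, match filter and handling of multiply matching reads is each not given in the sources used here. Near-identical or overlapping genes may therefore share reads, and no sequence or coordinate is printed. Empty cells (49.0%) were read as 0 reads, and the read 1 and read 2 columns of 7 libraries were summed, so a fragment can count in both. The authors also deposited edgeR tables, per the submitters' processing notes, whose columns are a log2 fold change, an unadjusted p-value for each locus and a log2 concentration (not used). No adjusted value was taken from them.

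All 50 members matched a locus in RefSeq's TAIR10.1 annotation, which served for symbols and gene order only. The test was that of edgeR 4.0.16 under R 4.3.3 (quasi-likelihood F test, TMM scaling, filterByExpr with a minimum count of 10), with time point and preparation as additive terms over all 9 libraries, which left 9300 genes. P-values were adjusted by Benjamini-Hochberg over all tested genes, with a threshold of 0.05. The SE of a fitted fold change is its absolute value divided by the square root of the F statistic. It is back-calculated from the test and is no separate measure of precision. CPM are summed reads per 1000000 of the TMM-scaled library size, with TMM factors from 0.657 to 1.30. The scripts were tested on simulated data. DESeq2 1.42.0, limma 3.58.1, other scaling, filters and read columns, libraries A and B alone and each library left out were tried as alternatives. Named members are EM1, EM6, the 10 dehydrins, the 8 seed-type and 6 vegetative members with the highest mean CPM among the rest, and unclassed members with a mean of 20 reads or more. ECP31, ECP63, AT3G22490, RAB28 and the near-zero SMP genes were named after their values were seen. The members, types and gene lists were chosen with earlier results of these data known.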

Additional observations from a re-analysis of the deposited data

Results flagged for a closer look

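In 3 comparisons of summed levels the C libraries moved the other way from the A and B libraries. These differences were not tested, since each letter has 1 library per time point. The summed seed-type level was higher in LD3 C than in LD1 C by a log2 ratio of 1.42, against −1.52 in A and −3.73 in B. The summed vegetative level was higher in LD3 C than in LD1 C by 2.65, against −0.66 in A and −1.79 in B. For LD3 against LD0 the vegetative log2 ratio in C was 0.0114, close to no difference, against −2.02 in A and −1.39 in B. In LD3 C, 86.2% of the vegetative reads were from DI21, and LD1 C held the fewest LEA reads of any library, with 302 of 714559.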

How the results depend on the processing

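With no filter on low counts edgeR called 14 members in LD1 against LD0, 25 in LD3 against LD0, 9 in LD3 against LD1, 25 in the joint test and 8 for preparation, of 47 members tested, against 0 in each with the filter. Of all 23312 genes tested without the filter, 0.459%, 1.57%, 0.798%, 1.86% and 2.53% were called in the same order. DESeq2 called 1, 22, 0, 1 and 6 members, beside 0.431%, 3.31%, 0.109%, 0.653% and 12.2% of the genes with an adjusted p, and limma-voom 0, 15, 0, 1 and 2, beside 0%, 5.46%, 0%, 0.441% and 16.4% of all genes. The 1 member called by DESeq2 for LD1 against LD0 was LEA4-1. Leaving out each library in turn gave 0 members called in the time comparisons and 0 to 5 for preparation, with 5 without LD0 C, where 1.3% of all genes were called. The cause was not tested.

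The seed-type log2 ratio for LD3 against LD0 was −6.02 from pooled reads. It was −5.16 to −4.05 with each library left out, and −4.08 to −1.08 for LD1 against LD0. The latter was −0.70 in libraries A and B alone and −2.53 with RAB18 counted as vegetative, and for LD3 against LD1 the seed-type ratio was −4.08 from pooled reads. The vegetative ratio for LD3 against LD0 was −1.85 in libraries A and B alone, −1.90 without DI21, −2.85 with RAB18 counted as vegetative and 0.01 from pooled reads. For LD3 against LD1 it was −2.65 with RAB18 counted as vegetative and 0.19 from pooled reads. With each library left out, the vegetative ratios ranged from −2.11 to −0.11 (LD1 against LD0), −1.61 to −0.37 (LD3 against LD0) and −1.06 to 1.26 (LD3 against LD1). The seed-type ratio for LD3 against LD1 ranged from −3.46 to −0.61. Of 1269 alternative fold changes of named members, 136 moved by more than 1 SE and 50 changed sign, in 23 of 75 results.

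Libraries of the same letter shared deviations from their group means (correlations 0.073 to 0.352 over 9 pairs, against −0.292 to 0.0402 between letters), and 9 of 9 libraries correlated best with their own letter, a hint from the data and not from the design. With a replicate block in place of the preparation term, 0 members were called in the time comparisons and the joint test, and the counts at an unadjusted p under 0.05 were 16, 27, 5 and 24 (beside 5.69%, 8.11%, 3.67% and 6.27% of all genes), against 8, 24, 5 and 20. Depth limits the A libraries and LD0 B, where 3 reads correspond to 19.8 to 28.5 CPM.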
